A study of Mus musculus with 22 samples.

Results

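The regions described here are stretches of open chromatin at least 500 bp wide that were listed for control retinal endothelial cells and overlapped nothing in the list for cells of the receptor knockout. They were chosen by measured values, namely the width of the control peak and the absence of any shared base with a gTKO peak, on chromosomes 1 to 19 and X of mm9. The rule gave 515 of the 57261 control peaks on those chromosomes, and they are called wide control-only regions below. The regions they are set beside are the 21197 control peaks of the same minimum width that did share at least 1 base with a gTKO peak, called partnered regions. Both genotypes lacked S1pr3 (S1pr3-/-) and carried floxed S1pr1 and S1pr2 on C57BL/6. gTKO pups also had the tamoxifen-inducible recombinase Rosa26-CreERT2, and control pups had none, so the presence of the recombinase and the loss of the receptors cannot be told apart. All these pups were given 100 µg tamoxifen from postnatal day 1 to 3, and endothelial cells were sorted from the retina at day 6, although the cell type label also calls them adult. Rosa26 drives the recombinase in cell types beyond endothelium. A replicate was a pool of 4 to 6 pups, with 5000 to 8000 cells per library, and each genotype had 3 libraries.

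ATAC-seq uses the transposase Tn5 to cut and tag DNA that is not wrapped in nucleosomes, and a peak is a stretch with many such cuts. In most cells accessible stretches sit at promoters and at enhancers, and some highly active genes carry near-continuous accessibility over many kilobases. The products of S1pr1, S1pr2 and S1pr3 are receptors on the cell surface for sphingosine 1-phosphate, a lipid carried in blood. They signal through G proteins, and in endothelium this signalling acts on vessel growth and on the junctions of endothelial cells. For each genotype, 1 list of peaks stands for its 3 libraries. The lists hold positions only, with no read counts, so there is no replicate error, no depth and no test between genotypes, and intervals below cover counting error alone. An mm9 sequence or gene annotation was not used here, so regions are given by position (mm9, counted from 1), without sequence and without a gene, exon or intron.

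Wide control-only regions were a small share of wide control peaks, and most lay near the lower limit of width. Of 21712 control peaks of at least 500 bp, 2.37% had no partner (exact 95% Clopper-Pearson interval 2.17 to 2.58%). Over control peaks of any width the share was 27.0%. Among gTKO peaks of at least 500 bp, 16 of 17089 (0.0936%) had no control partner, and the gTKO list is the shorter one. These shares are fixed by the rule and are given as description. The 515 regions covered 357587 bp and ranged from 500 to 3231 bp in width. Their median was 598 bp (interquartile range 536 to 714 bp), against 898 bp (671 to 1230 bp) for partnered regions. The share without a partner fell with width. It was 7.21% from 500 to under 600 bp (258 of 3576), 3.23% from 600 to under 800 bp (173 of 5355), 1.06% from 800 to under 1000 bp (43 of 4043) and 0.469% from 1000 bp upwards (41 of 8738). Just inside the limit, 30 of 375 control peaks of 500 to under 510 bp had no partner. Just outside it, from 490 to under 500 bp, this held for 40 of 373.

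Judged at 100 bp, the condition on overlap left few borderline cases. A gap of at most 100 bp to the nearest gTKO peak was found for 17 of the 515 regions, and 3 of the 21197 partnered regions had at most 100 bp covered. gTKO peaks covered a median of 83.9% of a partnered region, and 1375 partnered regions (6.49%) were covered over less than 50% of their length.

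Part of the class was concentrated in a few loci. When regions with gaps of at most 10 kb were joined, 364 of the 515 (70.7%) stood alone, 60 lay in 26 groups of 2 or 3, and 91 (17.7%) lay in 15 groups of 4 or more on 9 chromosomes. Thus 29.3% of the class (95% interval 25.4 to 33.5%) had another wide control-only region within 10 kb. Of partnered regions, 2.49% (2.29 to 2.71%) had one, and 2.14% did when they were weighted to the same width classes. Regions of 1 group share a locus and are not independent, which the intervals ignore. Grouped regions were the wider ones. The median width was 577 bp for single regions, 677 bp in groups of 2 or 3 and 743 bp in groups of 4 or more. Of the 41 regions of at least 1000 bp, 21 lay in groups of 4 or more, 14 in groups of 2 or 3 and 6 alone. Of the 364 single regions, 221 (60.7%) were under 600 bp.

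The largest group, on chromosome 8 from 11804198 to 11842300, held 11 wide control-only regions of 521 to 1776 bp. All 39 control peaks between its ends were without a partner, and the gTKO list had no peak there. Its widest region, from 11819092 to 11820867 (1776 bp), was 21407 bp away from the nearest gTKO peak. The unbroken run of control-only peaks was longer than the group. It extended from 11800438 to 11887147 and comprised 61 peaks, 12 of them at least 500 bp wide, with no gTKO peak in 86710 bp. By number of peaks this was the longest such run on the chromosomes examined.

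On chromosome 2, from 26464112 to 26485907, 8 wide control-only regions stood among 23 control peaks, of which 21 had no partner. The first region, from 26464112 to 26466107 (1996 bp), was followed by regions of 592, 1170 and 1014 bp with narrow gaps, then by regions of 942, 770, 556 and 872 bp. The 2 control peaks with a partner were narrower in the gTKO list. The one from 26478332 to 26478901 (570 bp) matched a gTKO peak of 168 bp, and the one from 26483228 to 26484908 (1681 bp) matched 2 gTKO peaks of 717 and 215 bp.

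On chromosome 8 from 74846769 to 74865848, 7 regions included the widest of the class, from 74852875 to 74856105 (3231 bp), and the next one 109 bp further on, from 74856215 to 74858069 (1855 bp). Control peaks covered 81.4% of this stretch (15535 bp) and gTKO peaks 9.18% (1751 bp). A control peak of 4329 bp near the start of the stretch, from 74847636 to 74851964, matched 2 gTKO peaks of 698 and 823 bp. The group thus held regions with no gTKO peak beside a wide region whose gTKO peaks were far narrower.

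**Figure D1:**
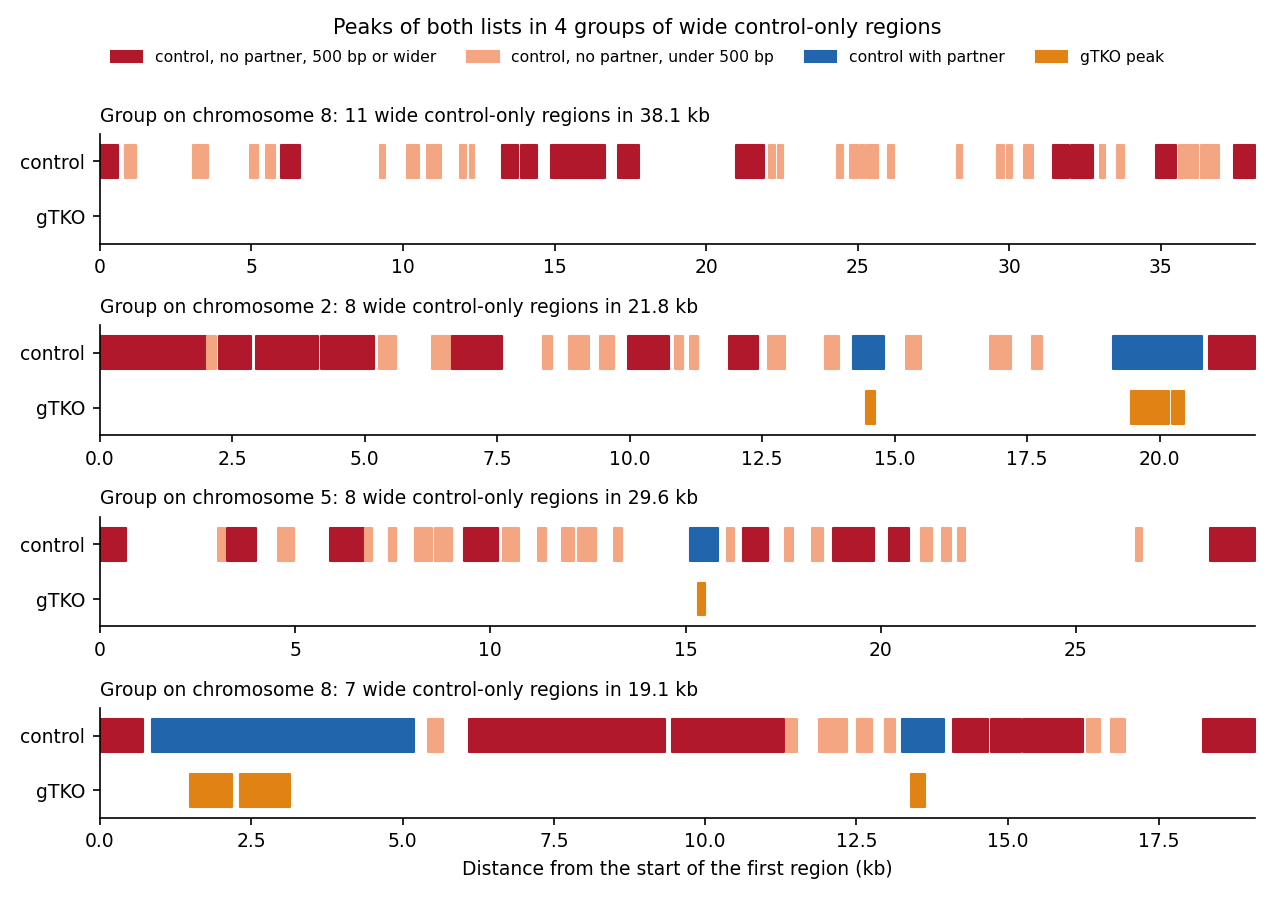
Peaks of both lists in 4 groups of wide control-only regions, with distance from the first region in kb on the x axis and 1 row per list. Red marks control-only peaks of at least 500 bp, light red narrower control-only peaks, blue control peaks with a partner and orange gTKO peaks. The gTKO row is empty for the group of 11 regions and holds 3, 1 and 3 peaks in the others.

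Other groups had the same arrangement of many control peaks and few gTKO peaks. On chromosome 5 from 32445547 to 32475127, 8 regions of 518 to 1139 bp lay among 28 control peaks, and the stretch held a single gTKO peak of 165 bp. The group on chromosome 6 from 51386534 to 51402624 had 7 regions, the widest of 1331 bp (51388389 to 51389719), and a single gTKO peak of 164 bp. A further 7 regions on chromosome 8, from 73243506 to 73255134, stood beside 1 gTKO peak of 351 bp, and the widest was 1543 bp (73245365 to 73246907). The 4 regions on chromosome 4 from 118819653 to 118826909, of 557 to 998 bp, had no gTKO peak among 13 control peaks. They fell in a run of 27 control-only peaks from 118816905 to 118834794.

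The remaining groups differed in how much gTKO coverage they held. Coverage ratios are over the whole group from end to end, including its partnered control peaks. On chromosome 15 from 101100402 to 101125145, 8 regions of 586 to 1599 bp (widest 101100402 to 101102000) stood among 20 control peaks and 6 gTKO peaks. The 5 regions on chromosome 5 from 143632041 to 143640786 covered 5355 bp, the widest from 143633273 to 143635033 (1761 bp), and 1 gTKO peak of 362 bp lay among them. In the group of 5 regions on chromosome 6 from 134942253 to 134956549, the widest was 1734 bp (134947746 to 134949479) and gTKO peaks covered 15.2% as many bases as control peaks. Another 5, on chromosome 8 from 86737188 to 86756147, stood among 21 control peaks and 3 gTKO peaks. The 4 regions on chromosome 7 from 19871276 to 19883268 began with one of 1857 bp (19871276 to 19873132), and gTKO coverage was 9.54% of control coverage. The corresponding value was 9.98% for the group of 4 regions on chromosome 12 from 82065683 to 82071638. It was 36.8% for the group of 4 on chromosome 7 from 26002334 to 26016401, and 39.8% for that of 4 on chromosome 9 from 20832841 to 20846806. The latter was the highest of the 15 groups.

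Summed over the 15 groups, 224 of 246 control peaks had no partner, against 15471 of all 57261 on these chromosomes (27.0%). Of the 224, 91 were the wide regions, which have no partner by the rule, and 133 were under 500 bp. Of the 15471, 14956 were under 500 bp, so the 27.0% mixes widths in other proportions than the groups do. A share for control peaks under 500 bp alone was not computed. Control peaks covered 156896 bp of 256267 bp and gTKO peaks 17557 bp, so gTKO coverage was 11.2% of control coverage. Over all of chromosomes 1 to 19 and X it was 77.1%. The ends of a group are control-only by definition, and its low ratio is a description. The median gap between successive control peaks was 204 bp in these groups, against 8527 bp genome-wide. Groups were joined at gaps of at most 10 kb, so no wider gap can occur inside one. Their close spacing is therefore partly fixed by the definition. Of 231 gaps in the groups, 115 (49.8%) were under 200 bp, against 5712 of 57241 (9.98%) genome-wide.

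Several groups were neighbours. Joining at 50 kb gave 17 loci with at least 4 wide control-only regions. The locus on chromosome 5 from 143606918 to 143686160 then held 11 regions and 22 gTKO peaks in 79243 bp. On chromosome 15, from 101063761 to 101125145, there were 10 regions and 19 gTKO peaks. At these loci wide control-only regions thus alternated with stretches where gTKO peaks were present, unlike the locus on chromosome 8 from 11804198 to 11854218, which held 12 regions and no gTKO peak.

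The 20 widest regions, from 1331 to 3231 bp, lay on 10 chromosomes. Only 2 of them stood alone, while 10 lay in groups of 4 or more and 8 in groups of 2 or 3. For 19 of the 20, a gTKO peak was found within 5 kb, and the median distance over all 20 was 1490 bp. Those in small groups have another wide control-only region within 10 kb by definition. On chromosome 8 from 124346504 to 124351606, 3 regions, one of 2909 bp (124347810 to 124350718), took up 5063 of 5103 bp, with no gTKO peak. As the regions filled 99.2% of this span, the absence of gTKO peaks from it follows from the rule. The region of 2383 bp on chromosome 7 (135151963 to 135154345) had 12 other control peaks within 10 kb, 10 of them without a partner. Beside the region of 2148 bp on chromosome 5 (143652315 to 143654462) only 4 of 11 such peaks had no partner, and a gTKO peak began 202 bp away. On chromosome 3, the region of 1825 bp (95487227 to 95489051) had 14 control and 8 gTKO peaks within 10 kb.

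The other 4 in small groups were the regions of 1662 bp on chromosome 2 (119178768 to 119180429), 1608 bp on chromosome 12 (86821945 to 86823552), 1492 bp on chromosome 15 (79192335 to 79193826) and 1331 bp on chromosome 4 (94713013 to 94714343). The nearest gTKO peak was 1481, 1498, 1335 and 331 bp away in this order. Of the 2 that stood alone, the region of 2281 bp on chromosome 8 (73230785 to 73233065) had 8 other control peaks within 10 kb, 2 of them without a partner, and 16 gTKO peaks. Joining at 50 kb placed this region in a locus of 8 with the group of 7 that starts at 73243506. The other one, of 1476 bp on chromosome 1 (192985064 to 192986539), had 16 control peaks around it, 11 of them without a partner, and 5 gTKO peaks.

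Regions that stood alone were mostly narrow and were found on all 20 chromosomes. They made up 1.68% of control peaks of at least 500 bp, with a range of 1.04 to 2.46% over chromosomes. The nearest gTKO peak was at a median of 3610 bp (quartiles 1065 and 13394 bp), against 4241 bp (1041 and 14785 bp) from partnered regions weighted to the same width classes to the nearest gTKO peak other than their partner. The median was 1213 bp in groups of 2 or 3 and 2943 bp in groups of 4 or more. Over all 515 regions it was 2874 bp (95% interval 2251 to 3415 bp). Within 1 kb of a gTKO peak lay 38 regions at under 200 bp (7.38%) and 93 at 200 to under 1000 bp (18.1%). For weighted partnered regions these shares were close, at 7.10 and 17.3%. At least 10 kb away were 124 regions, 7 of them at least 100 kb. From 10 to under 100 kb the share was 22.7%, against 30.0% of weighted partnered regions, and from 100 kb it was 1.36%, against 2.58%.

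**Figure D2:**
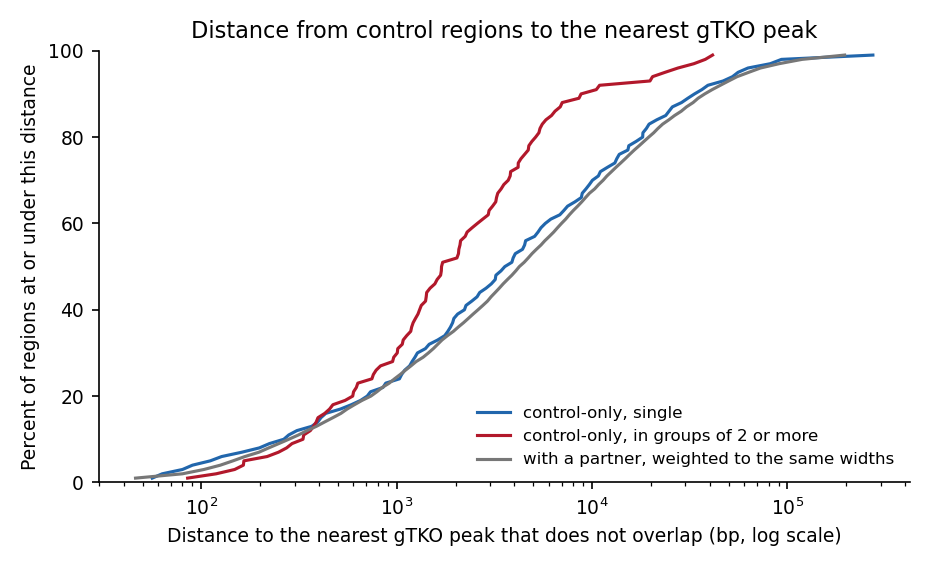
Percent of regions (y axis) at or under a given distance to the nearest gTKO peak that does not overlap (x axis, bp, log scale). Single wide control-only regions are in blue, those in groups of 2 or more in red and partnered regions, weighted to the same width classes, in grey. The blue and grey curves run close together, with medians of 3610 and 4241 bp.

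The 5 regions farthest from any gTKO peak were 501 to 683 bp wide, and most had no other control peak within 10 kb. On chromosome X, the region from 158154901 to 158155583 (683 bp) was 441052 bp away from the nearest gTKO peak and had no other control peak within 10 kb. The next were on chromosome 1 from 80754734 to 80755266 (533 bp, 349400 bp away), on chromosome 14 from 105195729 to 105196265 (537 bp, 273749 bp away) and on chromosome 16 from 28104884 to 28105384 (501 bp, 188089 bp away). The region on chromosome 4 from 21308671 to 21309182 (512 bp, 296985 bp away) differed from these in having 3 control peaks within 10 kb, the closest at 242 bp. At the other extreme, the region on chromosome 10 from 19569633 to 19570292 (660 bp) was separated from a gTKO peak by 4 bp. Gaps of 23, 26, 48 and 56 bp were found for regions on chromosome 5 (128356569 to 128357146), chromosome 14 (40286080 to 40286660), chromosome 9 (14939635 to 14940331) and chromosome 10 (122331627 to 122332156).

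The surroundings of the regions also held fewer gTKO peaks than control peaks. Within 10 kb on each side of a wide control-only region, the median was 4 other control peaks and 2 gTKO peaks. Beside partnered regions weighted to the same width classes it was 1 and 1, leaving out the region's own partner. Neighbouring control peaks had no partner in 68.9% of cases beside wide control-only regions and in 28.4% beside weighted partnered regions. gTKO coverage in these flanks was 35.1% of control coverage, against 72.7%. In groups the flanks of neighbouring regions overlap and are counted for each region. Other wide control-only regions within 10 kb are counted among these neighbours and have no partner by the rule. The values over all the regions and in groups are therefore partly fixed by the selection. Beside regions in groups of 4 or more, 85.7% of neighbouring control peaks had no partner and the coverage ratio was 17.1%. For single regions the values were 47.8% and 58.0%. A wide region next to single regions was partnered by definition, which works toward a higher ratio there.

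The single closest control peak was itself without a partner for 259 of the 515 regions (50.3%, 95% interval 45.9 to 54.7%). For single regions this share was 37.9% (32.9 to 43.1%), in groups of 4 or more 82.4% (73.0 to 89.6%), and for partnered regions 27.3% (26.7 to 27.9%). In groups the closest or flanking peak can be another wide control-only region, which has no partner by the rule. Both flanking control peaks lay within 10 kb and had a partner for 72 of the 515 regions, which is 14.0%, against 17.1% of partnered regions. In a further 190 (36.9%), control peaks lay within 10 kb and neither flank had a partner there, against 13.5% of partnered regions. No control peak at all lay within 10 kb of 77 regions (15.0%), against 29.9% of partnered regions. All 77 were single regions (21.2% of 364), as a grouped region has a control peak within 10 kb by definition. Both flanks had a partner for 17.3% of single regions and 5.49% of those in groups of 4 or more. Control peaks lay within 10 kb and neither flank had a partner there for 24.5% and 73.6%.

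**Figure D3:**
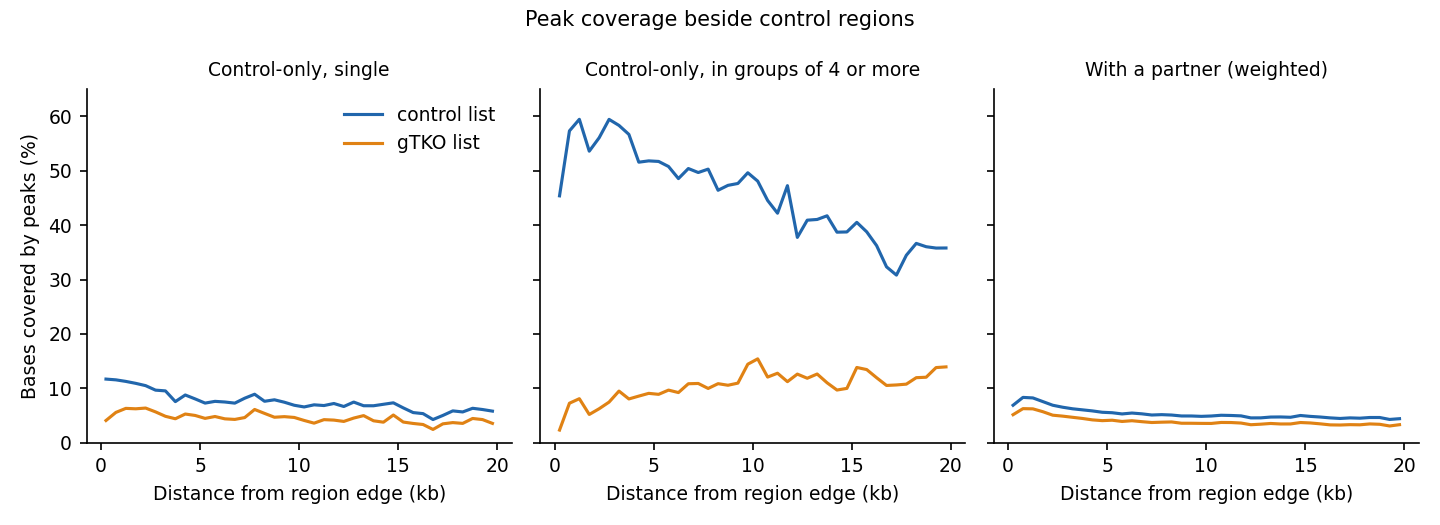
Percent of bases covered by control peaks (blue) and gTKO peaks (orange) in bins of 500 bp outward from the edges of single wide control-only regions, those in groups of 4 or more, and weighted partnered regions. In groups, control coverage was 45.4% and gTKO coverage 2.34% in the first bin. Beside single regions they were 11.7% and 4.10%, and beside partnered regions 6.91% and 5.17%.

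Among control peaks that did have a partner, the ratio of control to gTKO width was higher close to wide control-only regions. Pairs in which 1 control and 1 gTKO peak matched only each other were counted once and binned by distance. Within 1 kb, 117 pairs had a median control width of 1.52 times the gTKO width (95% interval 1.29 to 1.66), and the control peak was wider in 112 (95.7%, 90.3 to 98.6%). Beyond 50 kb it was wider in 79.1% (78.7 to 79.5%). From 1 to 5 kb the median ratio was 1.31 (1.26 to 1.39, 260 pairs), from 5 to 10 kb 1.25 (1.22 to 1.29, 256 pairs), from 10 to 50 kb 1.21 (1.19 to 1.23, 1568 pairs) and farther away 1.15 (1.15 to 1.15, 35671 pairs). Pairs close to the regions were also wider in the control list, with a median of 683 bp within 1 kb and 473 bp beyond 50 kb. In pairs whose control peak was 500 to under 1000 bp wide, the ratio was 1.39 (1.33 to 1.49, 243 pairs) within 10 kb and 1.22 (1.21 to 1.22, 11177 pairs) farther away. For control peaks of at least 1000 bp it was 1.26 (1.21 to 1.35) and 1.14 (1.14 to 1.15), and under 500 bp 1.23 (1.18 to 1.28) and 1.11 (1.11 to 1.12). The share of pairs with a wider control peak was also higher within 10 kb in each width class, and its difference was not tested. Its intervals overlapped for control peaks of at least 1000 bp, at 97.9% (94.0 to 99.6%) within 10 kb and 96.2% (95.7 to 96.6%) farther away. Overlapping intervals do not show that shares are equal. Intervals also overlapped from 500 to under 1000 bp, at 94.65% (91.0 to 97.1%) and 91.0% (90.4 to 91.5%). Under 500 bp they did not, at 79.4% (73.8 to 84.2%) and 66.9% (66.2 to 67.6%). Within 10 kb of groups of 4 or more the median ratio was 2.68 (1.69 to 3.39) and the control peak was wider in 41 of 41 pairs. Near single regions it was 1.27 (1.24 to 1.31, 528 pairs). Pairs near the same group or region share a locus and are not independent, which the intervals of pairs ignore.

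**Figure D4:**
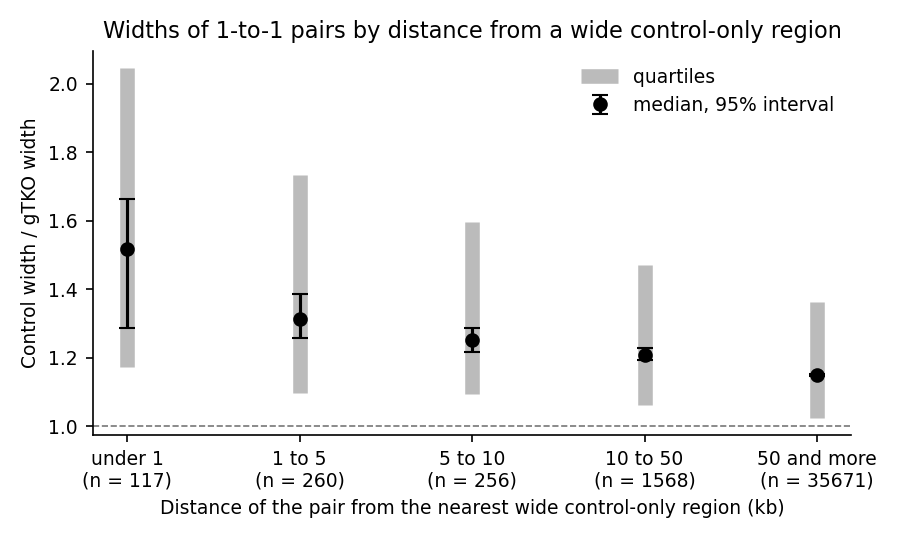
Ratio of control to gTKO width (y axis) in 1-to-1 pairs by distance to the nearest wide control-only region (x axis, kb). Points are medians with 95% order-statistic intervals and grey bars are quartiles. The median is 1.52 within 1 kb and 1.15 at 50 kb and beyond.

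Some of the regions lay near very wide partnered regions. Within 10 kb of a partnered region of at least 2000 bp lay 112 of the 515 (21.7%, 95% interval 18.3 to 25.6%), 55 of the 91 in groups of 4 or more, and 27 of the 364 single ones (7.42%, 4.94 to 10.6%). For narrower partnered regions weighted to the same width classes the share was 4.01%. The 76 such wide partnered regions near a wide control-only region were less fully covered by gTKO peaks, at a median of 72.0% (quartiles 50.6 and 85.5%) against 88.9% (82.7 and 93.9%) for the 883 others. They matched 2 or more gTKO peaks in 55 cases (72.4%), compared with 428 (48.5%) of the others. They were also somewhat wider, with medians of 2706 and 2321 bp.

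Wide control-only regions lay more often than partnered regions in stretches dense in control peaks, a difference not detectable when control-only peaks were left out of the count. Stretches of 10 or more control peaks with gaps of at most 3 kb held 162 of the 515 regions (31.5%, 95% interval 27.5 to 35.7%) and 3.14% of partnered regions (2.91 to 3.38%). Control-only peaks add to the number that makes such a stretch, so this difference is partly fixed by the definition. Of the 91 regions in groups of 4 or more, 89 lay in these stretches, as did 33 of the 364 single regions. With stretches built from gTKO peaks, and regions within 3 kb of one counted as inside, the shares were 1.94% (0.935 to 3.54%, 10 regions) and 1.48% (1.32 to 1.65%). With stretches built from partnered control peaks alone they were 0.583% (0.120 to 1.69%, 3 regions) and 0.939% (0.813 to 1.08%). Intervals overlapped under both of these definitions, which were added after seeing the data and can favour partnered regions.

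Among chromosomes, the share of control peaks of at least 500 bp that were control-only was highest on chromosome 8, with 53 of 1373 (3.86%, 95% interval 2.90 to 5.02%). The lowest share was on chromosome X, with 7 of 514 (1.36%, 0.549 to 2.79%). Of the 53 on chromosome 8, 30 belonged to groups of 4 or more. Counting single regions alone, the share on chromosome 8 was 1.31%, within the range of the others. The next highest shares had intervals that overlapped that of chromosome 8. Chromosome 6 had 34 of 1055 (3.22%, 2.24 to 4.47%), 12 of them in groups of 4 or more. Chromosome 16 had 21 of 692 (3.03%, 1.89 to 4.60%), of which 17 stood alone and none was in a group of that size.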

How the data were processed

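ATAC-seq was made from 3 control and 3 gTKO libraries. The authors deposited 1 list of peak positions per genotype (sequence, start and end, without header). Per the submitters' processing notes the build is mm9 and the tools named include Bowtie2, Picard, MACS2 and bedtools. The role of each tool, the calling threshold and any pooling of reads: not given in the sources used here. Read depth is unknown, and a list from fewer reads would hold fewer and narrower peaks. The series' 16 RNA-seq libraries were not analysed here.

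Overlaps, gaps and groups were computed with Python 3.11.15 (pandas 2.3.3, numpy 2.4.6 and scipy 1.17.1), and matplotlib 3.10.9 drew the figures. A partner shares at least 1 bp. No peaks overlapped within a list. Weighting gave partnered regions the width classes of the wide control-only regions (limits 600, 800 and 1000 bp). The functions were tested on simulated lists. Regions named are the 20 widest, the 5 farthest from and the 5 nearest to a gTKO peak, and every group of 4 or more; others were chosen after their values were seen. The regions and settings were chosen with earlier results of these data known. Planned comparisons of base composition, motifs and promoters need an mm9 genome or annotation and were not run. Alternatives covered width, overlap, merging, sequences, distances and density.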

Additional observations from a re-analysis of the deposited data

Results flagged for a closer look

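Unplaced sequences were outside the comparisons and held further regions of the same kind. Of 173 control peaks of at least 500 bp there, 24 had no gTKO partner (13.9%, 95% interval 9.10 to 19.9%). On chrUn_random, which gathers contigs with no chromosome, this was 23 of 45, with widths from 501 to 2710 bp, and the remaining region was on chr1_random. Chromosome Y had no control peak of that width.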

How the results depend on the processing

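The number of wide control-only regions depended on the width limit. Against 515 regions (2.37% of control peaks of at least 500 bp), limits of 300, 400, 600, 750 and 1000 bp gave 2634 (8.02%), 1126 (4.29%), 257 (1.42%), 106 (0.761%) and 41 (0.469%). Requiring 50% of the control peak to be covered gave 1890 (8.70%). Counting a gTKO peak within 100, 500 or 1000 bp as a partner left 498, 426 and 384 regions (2.29, 1.96 and 1.77%). Merging control peaks within 100 bp gave 628, and all sequences 539. Without the groups of 4 or more, 424 regions were left (1.96%). With limits of 300 and 750 bp, the median distance to a gTKO peak was 3403 and 2202 bp, that to the nearest control peak 980 and 110 bp against 414 bp, and the share with another such region within 10 kb 28.8 and 52.8%. The last share was 25.8% within 5 kb, 31.5% within 20 kb and 34.8% within 50 kb. The share in dense stretches was 42.1% with 5 or more peaks (partnered regions 10.9%), 20.4% with 20 or more (1.42%) and 44.9% with gaps of at most 10 kb (14.1%). It fell to 1.94% (1.48%) with stretches of gTKO peaks and to 0.583% (0.939%) with partnered control peaks alone, where control-only peaks cannot add to the count, both chosen after seeing the data. The median width ratio of pairs within 10 kb was 1.29. It was 1.27 without groups of 4 or more, 1.25 around regions of at least 300 bp and 1.52 around those of at least 750 bp, settings chosen after seeing the data. Fewer regions enter at higher width limits. No paired analysis was possible because the 3 libraries of a genotype stand behind a single list, so no library could be left out either.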

Other observations

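Long runs of control-only peaks were not all marked by wide ones. A run was a series of successive control peaks without a partner, and 33 runs had 10 or more peaks. They held 499 control-only peaks, 74 of the 515 wide control-only regions (14.4%) and 3 gTKO peaks, and 10 of the 33 runs had no region of at least 500 bp. The one with the most peaks among these 10 was on chromosome 15 from 79791935 to 79816936, with 18 control peaks in 25002 bp and no gTKO peak. On chromosome 11, a run of 17 peaks from 106599553 to 106623045 held 2 wide regions, and a further run of 13 from 106625211 to 106634681 held none.

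Wide regions found only in the gTKO list were fewer, and no groups were found among them. The 16 gTKO-only regions of at least 500 bp lay on 11 chromosomes, with a median width of 542 bp and a maximum of 672 bp, and 0 of the 16 had another within 10 kb. A count of 0 in 16 still permits 18.8%, taking 3 counts as the limit. The lists differ in length, and the difference was not tested.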
